A study of Mus musculus with 6 samples.

Results

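The amino acid transporter genes are those mouse genes whose symbols belong to the Slc1, Slc3, Slc6, Slc7, Slc36, Slc38 and Slc43 families of membrane carriers, and they were chosen by symbol alone. With a probe set of their own there were 60 such genes, among 19938 genes in all. The symbol rule also takes in carriers of related small molecules, among them Slc6a8, which carries creatine, Slc6a2, Slc6a3 and Slc6a4, which carry monoamines, and Slc43a3, which carries purine nucleobases.

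RNA came from Cxcl12-abundant reticular (CAR) cells, stromal cells of the bone marrow that surround blood vessels and supply factors to blood cell precursors. They were sorted by flow cytometry from femur and tibia of C57BL/6 mice, 7 weeks old, into CAR cells that Dmp1-Cre had targeted (3 arrays) and CAR cells that it had not (3 arrays). All 6 samples carried the same genotype, the Dmp1-Cre transgene and 1 Cxcl12-gfp allele, so the groups are populations of cells and not genotypes. In Dmp1-Cre mice the recombinase follows the regulatory sequence of Dmp1, whose product is a bone matrix protein made late in the osteoblast lineage and by osteocytes, and how its activity was read in the sort is not given in the sources used here. The labels name 3 biological replicates per group, and the design text has the cells sorted from 3 mice, with those of 1 mouse as 1 sample. It is not stated whether targeted and non-targeted cells of the same number came from the same mouse, so the 6 samples need not be 6 animals. In bulk RNA, fewer cells of a type and less RNA per cell cannot be told apart.

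Amino acid carriers set how fast a cell can make protein and sense its supply. The heavy chain Slc3a2 pairs with light chains of the Slc7 family at the cell surface, where Slc7a5 exchanges large neutral amino acids and Slc7a11 exchanges cystine for glutamate. Slc1a5 and Slc38a2 bring in glutamine and other small neutral amino acids with sodium, and cells of the osteoblast lineage use both during bone formation. The carriers Slc36a1 and Slc36a2 move small amino acids with protons, and Slc38a9 reports lysosomal arginine to the kinase complex mTORC1. When amino acids run short, the transcription factor ATF4 raises several of these genes through a composite site, the C/EBP-ATF response element.

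The promoters of 43 of the 60 members were at hand from RefSeq (GRCm38.p6), as windows from 250 bases before to 50 bases after a gene's start. They were searched on both strands for TGATGNAA, a core of the C/EBP-ATF response element. Of these members, 4 held it (Slc1a4, Slc6a21, Slc7a7 and Slc7a11), or 9.30% of members, against 4.51% of all 27025 genes with a window. The stretches of the cystine carrier gene Slc7a11 (chr3:50443633-50443699, minus strand) and of Slc7a7, a carrier of cationic amino acids (chr14:54418058-54418105, minus strand), are shown because both encode light chains and carry the letters before the start; capitals mark each match, in either orientation.
Slc7a11: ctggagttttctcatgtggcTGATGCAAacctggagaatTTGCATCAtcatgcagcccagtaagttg
Slc7a7: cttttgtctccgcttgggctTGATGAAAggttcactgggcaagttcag
Slc7a11 held 2 matches facing each other, the first base of each lying at -66 and at -47 from the start, and the match shown for Slc7a7 began at -141. A further Slc7a7 match, not shown, began at -1, across the start. The same bases lay at -243 in the window of another start of that gene. Such a match describes the letters only and is not evidence of binding. Both genes were dim in these cells, as given below.

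The identity of the sort was checked first. Dmp1 had log2 intensities of 11.28, 10.03 and 9.89 in targeted cells, against 7.51, 6.93 and 6.91 in non-targeted cells (log2 difference 3.28, SE 0.37). All 11 markers of CAR cells and marrow stroma, such as Cxcl12 and Lepr, lay above background on all 6 arrays. Background was taken as the 95th percentile of 1027 olfactory receptor genes, a family with no known role in marrow stroma, and it lay between 6.29 and 6.60 on the log2 scale. Markers of macrophages (Adgre1, Csf1r and Mrc1 among 5 of 12), endothelial cells (Pecam1, Cdh5 and Kdr among 6 of 10), B cells (Cd79a, Pax5 and Ms4a1 among 5 of 9) and erythroid cells (Klf1 and Rhag among 4 of 9) were at or below it on every array. Other markers of these types were above it, on all 6 arrays for Vcam1, which is also a stroma marker, for Eng, Egfl7 and Stab2 of endothelial cells, for Slc4a1 and Ermap of erythroid cells and for Cd79b and Ebf1 of B cells, and on 5 for the B cell precursor genes Vpreb1 and Igll1. The macrophage markers Lyz2 and C1qc were also above it on 5 arrays, and C1qb on 4. Vpreb1 had values of 8.33, 6.22 and 6.98 (targeted) and of 9.19, 7.81 and 9.16 (non-targeted). Lyz2 had values of 5.94, 8.04 and 8.49 (targeted) and of 7.03, 7.54 and 7.56 (non-targeted). The part of these markers in the results below was not tested. Neutrophil markers were present and uneven: the log2 of their summed intensity over 14 genes was 10.67, 13.04 and 13.52 in targeted cells, against 13.19, 13.39 and 13.81 in non-targeted cells, with Elane, Mmp8 and Ly6g at or below background. Targeted replicate 1 was far below the other 5 arrays in that sum.

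Of the 60 transporter genes, 24 were above background on all 3 arrays of at least 1 population, which is 40.0% against 50.4% of all genes. On all 6 arrays 19 members were above it, 10 on some arrays and 31 on none. The intensity of a probe set depends on its sequence, so levels of different members are set against the background and not against each other. The Slc1 family had 2 of 7 members above background, Slc1a5 and the glutamate carrier Slc1a3, while Slc1a4 and the other glutamate carriers Slc1a1, Slc1a2, Slc1a6 and Slc1a7 were not. In the Slc3 family the heavy chain Slc3a2 was above it and Slc3a1, the heavy chain of kidney and gut, was not. The Slc6 family had 5 of 18, Slc6a6 (taurine), Slc6a9 (glycine), Slc6a8, Slc6a17 and Slc6a3, the last in targeted cells only. The Slc7 family had 5 of 15, Slc7a1 (the cationic amino acid carrier CAT1), Slc7a4, Slc7a5, Slc7a6 and Slc7a10. The Slc36 family had all but Slc36a3, and the Slc43 family had Slc43a1 and Slc43a3. The Slc38 family had 6 of 11 (Slc38a2, Slc38a5, Slc38a6, Slc38a7, Slc38a9 and Slc38a10). With the 99th percentile of olfactory receptor genes as background, 13 members were above it by the same rule. Those no longer above it were Slc1a3, Slc6a3, Slc6a17, Slc7a1, Slc7a4, Slc7a5, Slc7a10, Slc36a4, Slc38a5, Slc38a7 and Slc43a1.

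**Figure D1:**
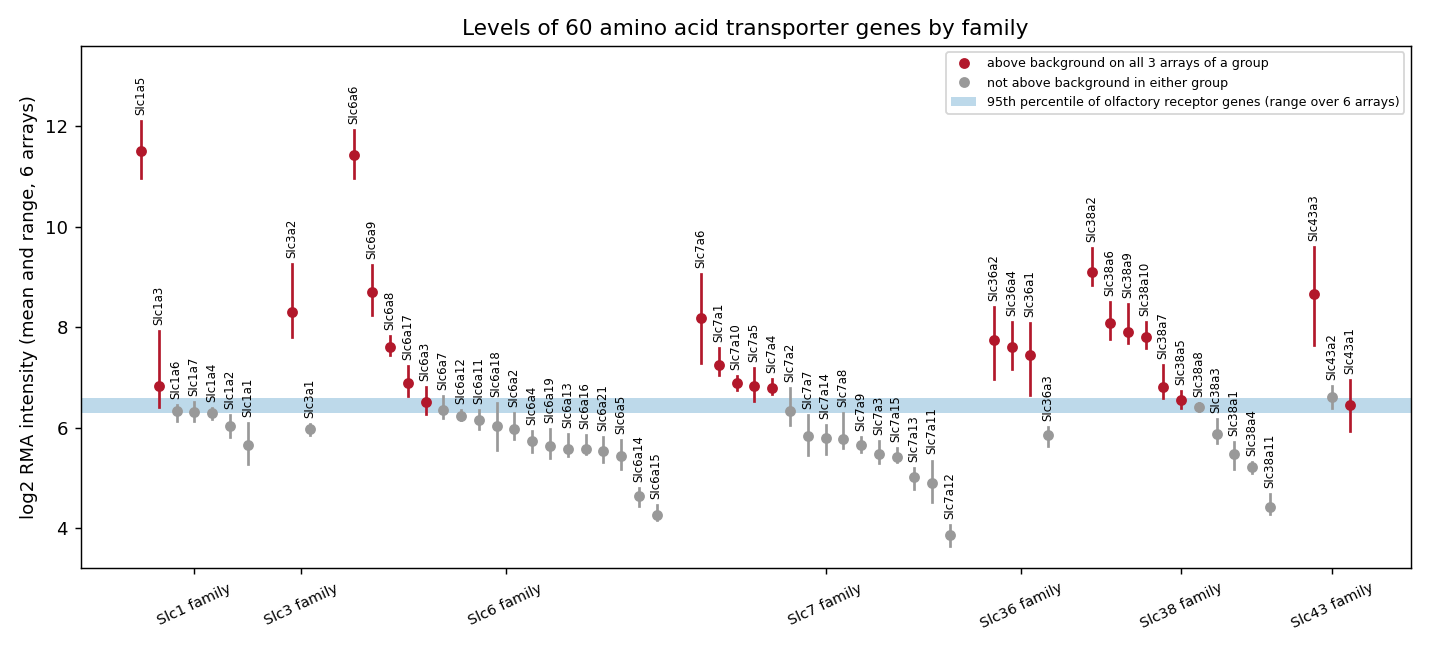
Log2 RMA intensity of the 60 transporter genes, grouped by family, with the mean over 6 arrays as a point and the range as a line; red marks genes above background on all 3 arrays of a population. The band is the background on the 6 arrays, 6.29 to 6.60, and 24 genes are red, with Slc1a5 and Slc6a6 farthest above the band.

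The populations were compared with limma on log2 intensities, and Benjamini-Hochberg adjustment ran across the 13292 genes left after the dimmest 33.3% had been set aside. Of the 60 members, 35 were tested and 25 were dim. None of the 35 passed the adjusted threshold of 0.05, and over all genes tested the share that passed was 0.0%. With an unadjusted p under 0.05 there were 4 of 35 members, against 4.77% of all genes; 1 was higher and 3 were lower in targeted cells, beside 1.35% of all genes higher and 3.42% lower. The arrays of the populations did not overlap for 5 members, 2 higher and 3 lower in targeted cells, where 9.07% of all genes did not overlap (3.32% higher and 5.76% lower). Every value below is therefore a description of these arrays, and no member is called changed.

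Slc36a2 stood out among the transporters. It encodes PAT2, a proton-coupled carrier of glycine, alanine and proline that is used as a surface marker of brown fat cells. Its log2 intensities were 8.35, 8.41 and 8.13 in targeted cells, against 7.20, 7.43 and 6.96 in non-targeted cells, all 6 of them above background. The targeted arrays lay close together and none came near a non-targeted one. The log2 difference of 1.10 (SE 0.18, 95% interval 0.69 to 1.51) is 2.14-fold, and it had the rank 3 among the 13292 genes by p, with an adjusted p of 0.701 by limma. No other member differed by 1 or more on the log2 scale, as 0.715% of all genes did. Leaving out each array in turn gave differences from 0.98 to 1.22. Of 8 markers of osteoblasts and osteocytes tested, 7 had a higher mean in targeted cells and Phex a lower one, and none passed the adjusted threshold. With Dmp1 left out, the mean log2 intensity of the 8 that had a value ran from 9.22 to 9.70 over targeted arrays, against 8.94 to 9.05 over non-targeted arrays. Their part in the Slc36a2 difference was not tested.

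The other Slc36 genes did not share that separation. Slc36a1, which encodes the lysosomal carrier PAT1 and lies beside Slc36a2 among the protein-coding genes of the RefSeq annotation, was at 7.02, 8.04 and 6.65 in targeted cells and at 7.60, 8.08 and 7.35 in non-targeted cells (log2 difference -0.44, 95% interval -1.28 to 0.40). Slc36a4, a carrier of proline and tryptophan, was at 7.85, 7.55 and 7.17 in targeted cells and at 7.19, 8.10 and 7.83 in non-targeted cells. For both genes the populations overlapped. Slc36a3, the other neighbour of Slc36a2, was dim on all arrays, at 5.95, 6.02 and 5.96 in targeted cells and at 5.81, 5.64 and 5.81 in non-targeted cells.

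**Figure D2:**
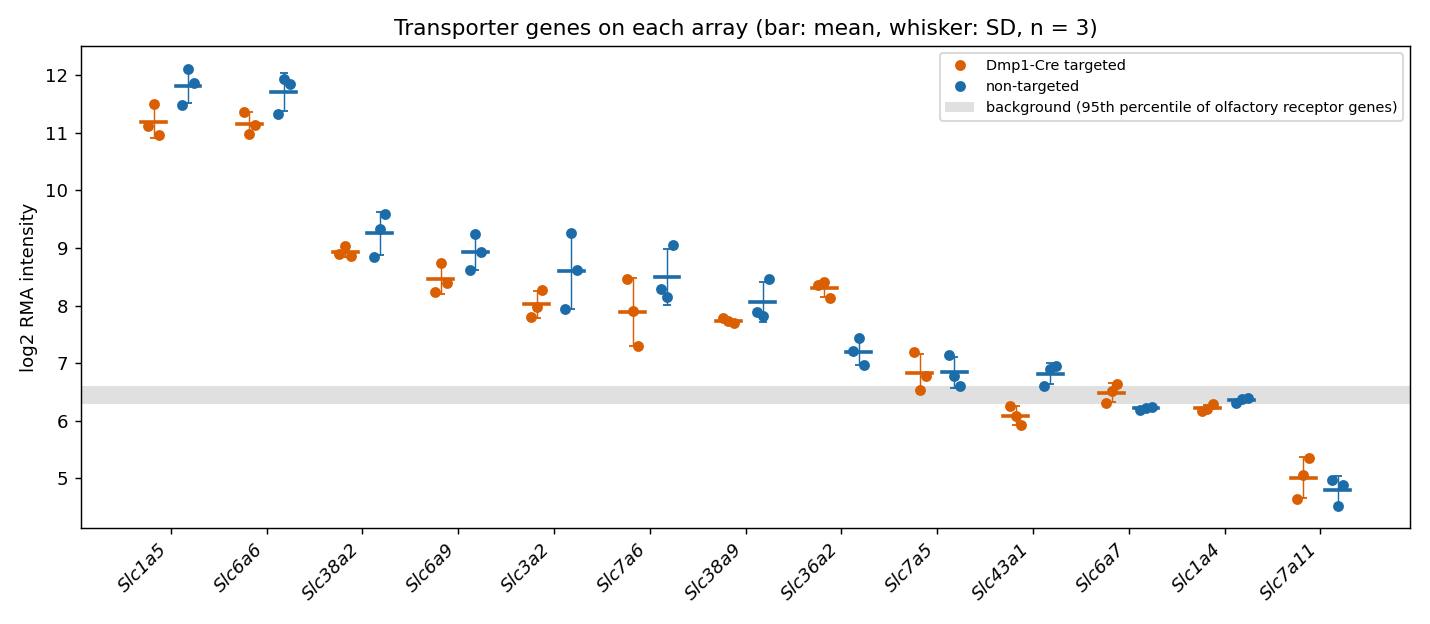
Log2 RMA intensity on each array of 13 transporter genes, targeted cells (orange) left of non-targeted cells (blue), with the mean as a bar and the SD as a whisker (n = 3); the grey band is the background. Slc36a2 is higher on all 3 targeted arrays, Slc43a1 is higher on all 3 non-targeted arrays, and Slc7a11 lies below the band on all 6.

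Slc43a1 showed the opposite pattern near the limit of detection. It encodes LAT3, a facilitative carrier of branched-chain and other large neutral amino acids. Its log2 intensities were 6.26, 6.09 and 5.93 in targeted cells, none above background, against 6.61, 6.90 and 6.95 in non-targeted cells, all above it. The fitted log2 difference was -0.73 (SE 0.17, 95% interval -1.12 to -0.34, limma adjusted p = 0.734). Since the targeted arrays give only an upper limit, the bound at this background is at least 1.27-fold lower there. The measured means were 6.09 (targeted) and 6.82 (non-targeted). The bound depends on the background chosen. The 99th percentile of olfactory receptor genes was 6.93, 7.26 and 7.29 on the targeted arrays, above the non-targeted mean, and gives no bound. Slc43a1 exceeded that percentile on 1 non-targeted array. Its relatives varied without separating: Slc43a2, a second carrier of large neutral amino acids, differed by -0.02, and Slc43a3 by -0.23 with targeted values of 9.60, 8.40 and 7.64 spanning the non-targeted ones of 8.85, 8.51 and 8.96.

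The sodium-coupled carriers that lay farthest above background had lower means in targeted cells. Slc1a5, the glutamine exchanger ASCT2, was at 11.11, 11.51 and 10.97 in targeted cells and at 11.49, 12.10 and 11.87 in non-targeted cells. Its log2 difference was -0.62 (SE 0.22, 95% interval -1.13 to -0.12, limma adjusted p = 0.954), and the populations overlapped by targeted replicate 2 and non-targeted replicate 1. Slc6a6, the taurine carrier, was at 11.37, 10.98 and 11.13 in targeted cells and at 11.33, 11.93 and 11.85 in non-targeted cells (log2 difference -0.55, SE 0.21, limma adjusted p = 0.971). Here targeted replicate 1 lay just above non-targeted replicate 1, and the other two non-targeted arrays were clearly higher. Slc38a2, the amino acid carrier SNAT2 that cells raise on starvation, was at 8.90, 9.03 and 8.87 in targeted cells and at 8.84, 9.33 and 9.58 in non-targeted cells (log2 difference -0.32, SE 0.21), and its difference was -0.15 without non-targeted replicate 3 and -0.52 without non-targeted replicate 1. Slc6a9, the glycine carrier GLYT1, was at 8.24, 8.74 and 8.40 in targeted cells and at 8.62, 9.24 and 8.94 in non-targeted cells (log2 difference -0.47, SE 0.21). In all 4 genes non-targeted replicates 2 and 3 were the highest of the 6 arrays, and non-targeted replicate 1 lay within or close to the targeted range. The stroma markers also had a higher mean log2 intensity on those arrays, at 11.48, 11.10 and 11.14 in targeted cells and at 11.40, 11.74 and 11.54 in non-targeted cells. All 11 stroma markers had a lower mean in targeted cells, where 51.1% of all genes tested were lower. Their median log2 difference was -0.34, and none passed the adjusted threshold. The part of the stroma markers, like that of the neutrophil markers above, was not tested.

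The surface heterodimer was uneven between arrays. Slc3a2, the heavy chain, was at 7.80, 7.98 and 8.27 in targeted cells and at 7.94, 9.26 and 8.62 in non-targeted cells (log2 difference -0.59, SE 0.32, 95% interval -1.34 to 0.16). Most of that difference came with non-targeted replicate 2, and without it the difference was -0.26. Slc7a6, a light chain (y+LAT2) that exchanges cationic for neutral amino acids, was at 8.46, 7.91 and 7.29 in targeted cells and at 8.29, 8.16 and 9.05 in non-targeted cells (log2 difference -0.61, SE 0.34), with non-targeted replicate 3 the highest; without that array the difference was -0.34, and without targeted replicate 3 it was -0.31. Slc7a5, the light chain LAT1, was at 7.19, 6.53 and 6.77 in targeted cells and at 7.14, 6.79 and 6.60 in non-targeted cells. Its log2 difference was -0.01 (SE 0.22, 95% interval -0.53 to 0.51), an interval that still allows a ratio of targeted to non-targeted from 0.69 to 1.42. Slc7a11, whose promoter is shown above, was dim, at 4.64, 5.06 and 5.35 in targeted cells and at 4.98, 4.52 and 4.89 in non-targeted cells. The other dim light chain genes were Slc7a7, Slc7a8, Slc7a9, Slc7a12, Slc7a13 and Slc7a15. That left Slc7a5, Slc7a6 and Slc7a10 as the light chain genes above background. Of these, only Slc7a6 exceeded the 99th percentile of olfactory receptor genes on all 3 arrays of each population. Slc7a5 exceeded that percentile on 1 targeted array and Slc7a10 on none.

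Separated arrays did not always mean a signal. Slc1a4, the neutral amino acid exchanger ASCT1, was at 6.17, 6.21 and 6.29 in targeted cells and at 6.30, 6.38 and 6.39 in non-targeted cells, with 1 of the 6 values above background, and no fold is given. Slc6a7, a proline carrier of brain, was at 6.31, 6.51 and 6.64 in targeted cells, with 2 of these values above background. In non-targeted cells it was at 6.19, 6.22 and 6.24, where none was above background, and no fold is given. Slc38a9, the lysosomal arginine sensor, was at 7.79, 7.74 and 7.69 in targeted cells and at 7.89, 7.82 and 8.46 in non-targeted cells (log2 difference -0.32, SE 0.20). The separation of Slc38a9 is narrow except for non-targeted replicate 3, and without that array the difference was -0.12. Its other probe set had targeted values of 7.38, 7.10 and 7.03 and non-targeted values of 8.76, 7.57 and 7.13. There the populations overlapped, and the array that was highest differed between the probe sets.

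**Figure D3:**
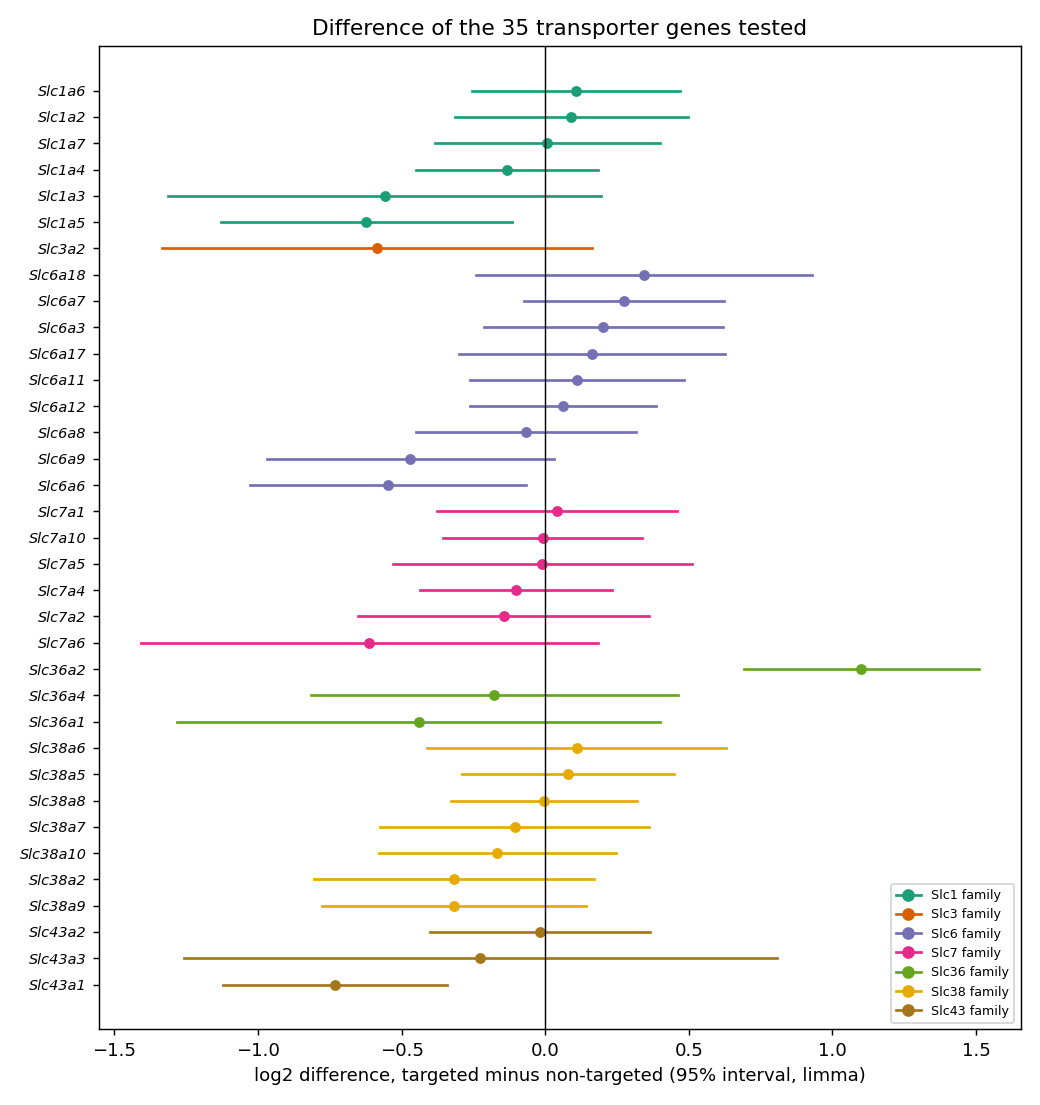
Log2 difference, targeted minus non-targeted cells, for the 35 transporter genes tested, with the 95% interval of limma's fit, coloured by family. Slc36a2, at 1.10, is the one gene whose interval lies wholly above 0, and the intervals of Slc43a1, Slc1a5 and Slc6a6 lie wholly below 0; none passed after adjustment.

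As a list, the 35 members tested had 13 genes higher and 22 lower in targeted cells, with a median log2 difference of -0.07, beside 51.1% lower and a median of -0.01 over all genes tested. By family the lower genes were 3 of 6 in Slc1, 1 of 1 in Slc3, 3 of 9 in Slc6, 5 of 6 in Slc7, 2 of 3 in Slc36, 5 of 7 in Slc38 and 3 of 3 in Slc43. Among genes brighter than the median gene, 18 of 22 members were lower in targeted cells and 4 were higher, with a median of -0.17, where 55.3% of all such genes were lower and the median was -0.03. The count ran from 15 of 22 without non-targeted replicate 2 to 19 of 22 without non-targeted replicate 3, and the median from -0.25 without targeted replicate 1 to -0.09 without targeted replicate 3. Non-targeted replicate 2 held the highest value of 10 of these 22 members, as it did for 25.2% of all such genes, and targeted replicate 3 held the lowest value of 10, as it did for 22.5% of all such genes.

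**Figure D4:**
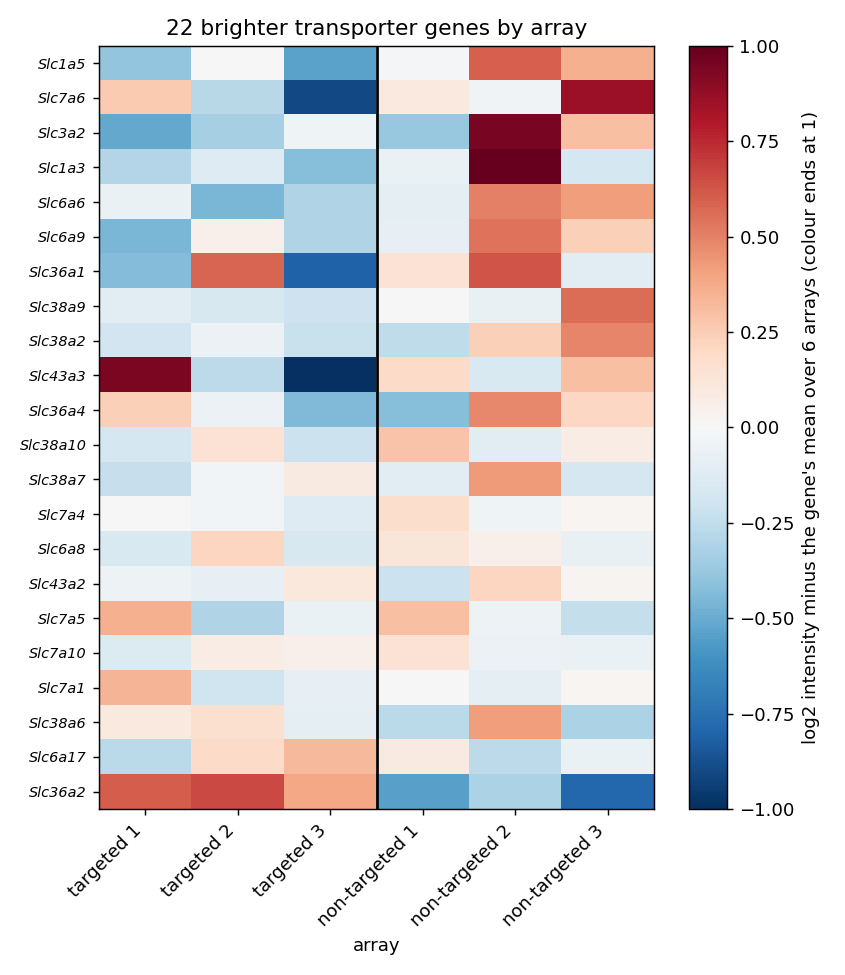
Log2 intensity of the 22 brighter transporter genes on each array, as the difference from the gene's own mean over 6 arrays, targeted arrays left of the line and genes ordered by their difference. The upper rows are mostly red on non-targeted replicates 2 and 3, while Slc36a2 in the bottom row is red on all 3 targeted arrays.

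The genes that act around the carriers were described in the same way, as lists put together with earlier results of these data known. Targets of the amino acid response showed no common direction: 27 of 30 listed genes were tested, none passed in either direction, 14 were higher and 13 lower, and the median log2 difference was 0.01. Sesn2, which encodes a leucine sensor that restrains mTORC1, was at 7.38, 6.97 and 6.56 in targeted cells, against 6.41, 6.39 and 6.55 in non-targeted cells (log2 difference 0.52, SE 0.22). The targeted arrays were all higher, though targeted replicate 3 and non-targeted replicate 3 nearly met, and no adjusted call was made. Sesn2 was above background on 5 of 6 arrays, not on non-targeted replicate 1, and its non-targeted values all lay close to background. No other gene of this list had separate arrays. Of the other named genes, Vldlr differed by 0.50, the glutathione-degrading enzyme gene Chac1 by 0.29 and Cebpg by -0.30, with overlapping arrays.

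Genes of amino acid metabolism had 25 members tested of 34, 10 higher and 15 lower, with a median of -0.11 and none passing. The arrays did not overlap for 5 of the 25, 1 higher and 4 lower in targeted cells, where 9.07% of all genes tested did not. Oat, the mitochondrial ornithine aminotransferase that links ornithine to proline, was at 9.80, 9.37 and 9.61 in targeted cells, against 10.11, 10.22 and 10.07 in non-targeted cells (log2 difference -0.54, SE 0.16, limma adjusted p = 0.890). The populations did not overlap, and the non-targeted arrays were close together. Glul, glutamine synthetase, was at 8.94, 10.30 and 9.80 in targeted cells, against 9.93, 10.67 and 10.47 in non-targeted cells, with overlap. Asl, argininosuccinate lyase, differed by 0.25 without overlap and Gclc, a subunit of the first enzyme of glutathione synthesis, by -0.40 with overlap.

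For lysosomal sensing and mTORC1, 23 of 27 genes were tested, 9 were higher and 14 lower with a median of -0.04, and none passed. Without overlap were 4 of the 23, 1 higher and 3 lower in targeted cells, beside 9.07% of all genes tested. Mlst8, a subunit of both mTOR complexes, was at 6.59, 6.73 and 6.56 in targeted cells, against 6.88, 7.00 and 7.27 in non-targeted cells (log2 difference -0.42, SE 0.16). Of the Ragulator subunits that tether mTORC1 to the lysosome, Lamtor3 differed by -0.75 (SE 0.33) and Lamtor1 by 0.47 (SE 0.32), the first without overlap and the second with it. Both rested on single arrays: with each array left out in turn Lamtor3 ran from -1.05 to -0.36 (without targeted replicates 1 and 3) and Lamtor1 from 0.12 to 0.82 (without the same arrays). Of the other amino acid and peptide carriers, 15 of 23 were tested, 10 were higher and 5 lower, with a median of 0.10, none passed and none had separate arrays. The lysosomal cystine exporter gene Ctns was above background on 1 of 6 arrays, so no difference is given. The lysosomal peptide carrier gene Slc15a3 differed by 0.23, the mitochondrial ornithine carrier gene Slc25a15 by 0.30 and the vesicular carrier gene Slc32a1 by 0.19, all with values close to background.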

How the data were processed

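RNA of sorted CAR cells was hybridised to Affymetrix mogene 1.0 ST arrays, 3 per population. The deposited values are intensities per probe set that the authors summarised with RMA; the submitters' processing notes name Affymetrix Expression Console 1.4. They are linear, so log2 was taken. Array medians ran from 79.4 to 87.5. Precision is limited by the small number of arrays.

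Gene names came from GEO's platform annotation, with symbols updated by Entrez identifier in RefSeq (21698 of 21789 matched). Those with several genes (1621) or unlisted (12146) were not used, and each gene kept its brightest probe set by the mean over 6 arrays. Genes at or below a log2 mean of 6.00, the dimmest 33.3%, were not tested. Testing used limma 3.58.1 under R 4.3.3 (lmFit, eBayes; two-sided, adjusted over 13292 genes), as targeted minus non-targeted with no covariate. The procedure was tested on simulated data. Values on each array are given for members with a mean of 9 or more, with separate arrays, among the 8 smallest p, or fixed by function. Other members given by name were chosen after their values were seen. The members and lists were chosen with earlier results of these data known. Same-numbered arrays deviated from their group means with correlations of -0.26, -0.12 and 0.07. Those of arrays with different numbers ran from -0.26 to 0.32. With 3 arrays per group, whose deviations cancel within the group, these values cannot decide whether mice were shared. The numbers were not taken to pair samples. Alternatives covered the filter, scaling, variance moderation, array weights, the probe set rule, the replicate number as a block and each array left out. P-values set the difference of the populations against the spread between arrays within them, with the 6 arrays taken as independent. If both populations came from the same mice, the fit reported does not take that into account.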

Additional observations from a re-analysis of the deposited data

How the results depend on the processing

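No transporter gene passed the adjusted threshold under any of the 15 alternatives run. The count over all genes was 0 in the fit reported, and 1 with array weights and 1 with the replicate block, in both cases Dmp1. The block changed no other call. Same-numbered arrays did not deviate together, which does not settle whether they came from the same mice. The 12 named members that were tested kept their direction under all alternatives run on them, except Slc7a5, which was 0.053 with array weights and ran from -0.19 to 0.14 with each array left out. The difference of Slc36a2 ran from 0.98 to 1.28 over 15 alternatives (limma adjusted p from 0.113 to 1.00). The median of the transporter genes was 0.028 with no filter, where 60 members enter and 28 are lower, and -0.17 with the stricter filter, where 22 enter. Members above background were 24, and 13 at the 99th percentile. The median of the osteoblast list was 0.37 with no filter and 0.54 with array weights, and ran from 0.43 to 0.78 with each array left out; that of B cell markers was -0.16 with the stricter filter and ran from -0.10 to 0.070. The amino acid metabolism median was 0.018 with array weights and ran from -0.15 to -0.0049 with each array left out. In the same fits the medians ran from 0.024 to 0.11 for other carriers, from -1.74 to -0.22 for neutrophil markers and from -0.15 to 0.12 for macrophage markers. The causes were not tested. The counts of brighter members without each array were chosen after seeing the data.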

Other observations

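Some members varied mainly on 1 array. The glutamate carrier gene Slc1a3 was at 6.55, 6.71 and 6.41 in targeted cells and at 6.77, 7.92 and 6.66 in non-targeted cells, so that non-targeted replicate 2 stood above the other 5 arrays. Slc43a3 ranged over the targeted arrays, with 9.60 in replicate 1 and 7.64 in replicate 3, more widely than between the means of the populations, 8.55 in targeted and 8.77 in non-targeted cells. By contrast the creatine carrier gene Slc6a8 held 7.46, 7.83 and 7.45 in targeted cells and 7.73, 7.67 and 7.54 in non-targeted cells, and Slc38a10 of the glutamine carrier family held 7.64, 7.96 and 7.59 in targeted cells and 8.10, 7.70 and 7.88 in non-targeted cells.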
